A study of Homo sapiens with 6 samples.

Results

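ChIP-seq peak intervals were described at POU2F3 and at the window that holds the genes of its coactivators, C11orf53 and COLCA2, in NCI-H526 cells, an established line from a human small cell lung cancer. The POU2F3 locus was the gene, at chromosome 11, 120107349 to 120190653 on hg19, with 50 kb on either side. The coactivator window was chromosome 11, 111100000 to 111230000. Every distinct interval that touched either region was a member, which gave 202 of the 271093 intervals of the 4 lists, with 93 at the POU2F3 locus and 109 in the coactivator window. The groups were LSD1 in cells treated with the LSD1 inhibitor GSK2879552 (GSK552 in the labels, 1 µM for 24 hours), LSD1 in cells given DMSO, the vehicle, and both histone marks, H3K4me2 and H3K4me1, under DMSO alone. The study also had 2 inputs, which were not used here. Each group was 1 library of 1 cell line, so no difference between groups has a replicate check, and no test was run. The files hold peaks and no expression values, so the identity of the cells was not checked against marker genes.

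POU2F3 is a transcription factor that binds octamer DNA with its POU domain and directs the formation of tuft cells, the chemosensory cells of many epithelia. NCI-H526 belongs to the tuft-like form of small cell lung cancer, which depends on POU2F3 and lacks the neuroendocrine program of most such tumours. C11orf53 (now POU2AF2, also OCA-T1) and COLCA2 (now POU2AF3, also OCA-T2) encode coactivators that bind POU2F3 on DNA, and they are related to POU2AF1 (OCA-B), the coactivator of B cells. LSD1 (KDM1A) removes methyl groups from H3K4me1 and H3K4me2. H3K4me1 is common at enhancers, and H3K4me2 at enhancers and promoters.

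In the RefSeq gene table, which is on GRCh38 and was used for gene order alone, C11orf53 is followed by the noncoding gene COLCA1, then COLCA2, and further on by POU2AF1. Among protein-coding genes, POU2F3 lies between OAF and TLCD5 (formerly TMEM136), which is followed by ARHGEF12. Promoter sequences were found in RefSeq for 1 of the 3 genes, COLCA2, at 3 start sites. They are shown because COLCA2 is the coactivator gene whose regulatory DNA can be read here, and because its starts differ in base composition. Each runs from 250 bases before to 50 bases after the start, on the plus strand of GRCh38.p14, and capitals mark an E-box (CAGNTG).

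COLCA2 start 1, chr11:111298296-111298595: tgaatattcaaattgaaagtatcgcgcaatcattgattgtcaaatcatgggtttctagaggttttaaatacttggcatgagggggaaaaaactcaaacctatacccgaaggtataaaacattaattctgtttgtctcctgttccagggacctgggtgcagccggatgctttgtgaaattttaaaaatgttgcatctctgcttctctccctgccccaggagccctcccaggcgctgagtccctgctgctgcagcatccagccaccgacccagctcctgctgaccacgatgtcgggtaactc
COLCA2 start 2, chr11:111298674-111298973: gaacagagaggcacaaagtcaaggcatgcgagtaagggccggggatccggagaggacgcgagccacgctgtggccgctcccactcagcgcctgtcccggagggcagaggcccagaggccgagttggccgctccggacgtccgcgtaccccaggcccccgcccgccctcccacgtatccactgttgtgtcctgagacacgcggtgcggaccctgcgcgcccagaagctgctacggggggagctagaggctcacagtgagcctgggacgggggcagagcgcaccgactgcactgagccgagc
COLCA2 start 3, chr11:111299059-111299358: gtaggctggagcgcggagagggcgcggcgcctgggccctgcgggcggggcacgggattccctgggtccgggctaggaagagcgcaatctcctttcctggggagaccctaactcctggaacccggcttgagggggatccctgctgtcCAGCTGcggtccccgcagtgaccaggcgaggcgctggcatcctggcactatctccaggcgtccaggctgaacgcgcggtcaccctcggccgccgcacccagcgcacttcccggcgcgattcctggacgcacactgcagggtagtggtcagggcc

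The octamer ATGCAAAT, searched on both strands, was in 0 of the 3 sequences and in 1.77% of the 35116 promoters of the table. An E-box, a motif of basic helix-loop-helix factors, was in start 3 alone and in 49.9% of all promoters. Start 1 held 8 CpG dinucleotides, start 2 held 28 and start 3 held 27, beside a median of 14 over all promoters. These letters describe the windows shown. Since their positions are on another build than the peaks, no peak was placed on them.

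Both regions were dense in LSD1 peaks and in both marks. The POU2F3 locus held 24 LSD1 peaks with inhibitor, 18 LSD1 peaks with DMSO, 19 H3K4me2 intervals and 32 H3K4me1 intervals over 183 kb. The coactivator window held 26 LSD1 peaks with inhibitor, 18 with DMSO, 36 H3K4me2 intervals and 29 H3K4me1 intervals over 130.001 kb. H3K4me1 intervals covered 51.8% of the coactivator window and 25.5% of the POU2F3 locus. H3K4me2 covered 31.6% of the window and 20.1% of the locus.

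These densities were set against all windows of the same length tiled over the genome. Of 16863 windows as long as the POU2F3 locus, 16 held at least 24 LSD1 peaks with inhibitor and 77 held at least 18 with DMSO, and the median window held 2 of either kind. By covered length, at least as much H3K4me2 as at POU2F3 was found in 26 of these windows, and as much H3K4me1 in 63. By count, 677 of them held at least 19 H3K4me2 intervals and 241 held at least 32 H3K4me1 intervals. Of 23785 windows as long as the coactivator window, 2 held at least 26 LSD1 peaks with inhibitor and 31 held at least 18 with DMSO. The coverage of that window was reached by 4 windows for H3K4me2 and 5 for H3K4me1. By count, 15 windows held at least 36 H3K4me2 intervals and 180 held at least 29 H3K4me1 intervals. LSD1 coverage was reached by 29 windows with inhibitor and 67 with DMSO for POU2F3, and by 1 and 7 for the coactivator window. By coverage, the coactivator window was nearer the top of its tiling than POU2F3 was of its own, in all 4 lists. The regions were drawn by different rules, and how far this shaped their places was not tested.

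Both regions and their surroundings carried a raised background in all 4 lists. The background that a peak's fold and p-value imply was, relative to each list's median, a median of 2.24 for LSD1 with inhibitor, 2.42 for LSD1 with DMSO, 2.00 for H3K4me2 and 2.15 for H3K4me1 at POU2F3. The medians of the coactivator window were 2.55, 3.06, 2.16 and 2.34 in the same order. The 1000 kb on either side were raised too, with medians from 1.88 to 2.56 over the lists and sides. The widest gap was for LSD1 with DMSO, at 3.06 in the coactivator window against 1.97 before and 2.55 after it. For LSD1 with inhibitor the window had 2.55, against 2.01 before and 2.56 after. These flanks held fewer peaks: LSD1 with inhibitor had 13.1 peaks per 100 kb at POU2F3, against 6.0 before and 4.9 after it. The coactivator window had 20.0 such peaks per 100 kb, against 4.1 before and 5.3 after. The like figures for LSD1 with DMSO were 9.82 at POU2F3, against 5.1 and 4.1, and 13.8 in the coactivator window, against 3.4 and 4.7. A raised background gives more reads, hence a higher score at the same fold, so folds are given beside scores below. Its part in the scores was not tested.

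**Figure D1:**
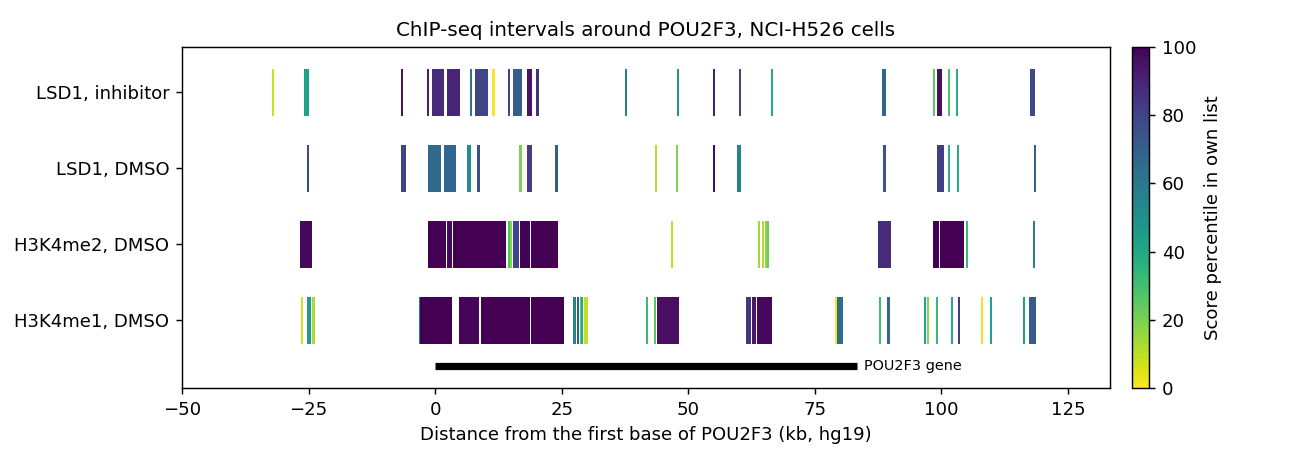
Intervals of the 4 lists around POU2F3, as distance in kb from the first base of the gene on hg19, with colour for the percentile of the score within each list (100 the strongest) and bars narrower than 0.4 kb drawn at 0.4 kb. Both marks and LSD1 crowd from just before the gene start to about 24.2 kb inside it (20.4 kb for LSD1 with inhibitor). H3K4me1 alone goes on to 30.1 kb. Thin LSD1 peaks without marks stand at -6.74 kb and 54.9 kb.

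The first part of POU2F3 was mostly covered by both marks. Members of the 4 lists were joined into blocks over gaps of up to 2 kb, a rule chosen after the values were seen, which gave 13 blocks at POU2F3. The widest ran from -3.23 kb to 30.1 kb around the gene start, 33.3 kb in all, and held 35 of the 93 intervals: 10 LSD1 peaks with inhibitor, 7 LSD1 peaks with DMSO, 8 of H3K4me2 and 10 of H3K4me1. H3K4me1 covered 28.6 kb of it and H3K4me2 24.2 kb. LSD1 covered 12.3 kb with inhibitor and 8.39 kb with DMSO.

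An interval of every list covered the first base of POU2F3. For LSD1 with inhibitor it was 120106753 to 120109014, with a fold of 4.03 over the caller's background and a score percentile of 88.0. The score follows the −log10 q, the percentile is taken within the interval's own list, with 100 the strongest, and rank 1 is the highest score. For LSD1 with DMSO it was 120106022 to 120108453, with a fold of 3.21 and a percentile of 66.5. H3K4me2 had 120105992 to 120109487, with a fold of 16.7 and rank 611 of 81619. H3K4me1 had 120104423 to 120110630, with a fold of 24.7, which ranked 8 of 94689 by score and 23 by fold. The highest summit of the H3K4me1 interval lay at -0.998 kb from the gene start and that of H3K4me2 at -0.571 kb.

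The strongest interval of each mark at the locus lay in this block. For H3K4me1 the 3 highest were the interval at the gene start, then 120126274 to 120132853 with a fold of 24.2 and rank 10, and 120116383 to 120126042 with a fold of 21.4 and rank 18. All 3 lay within or across the start of 1 gene. For H3K4me2 the highest was 120110873 to 120121442, with a fold of 21.5 and rank 27. It was 10.6 kb wide, with 28 summits, and ranked 7 by width of the 81619 H3K4me2 intervals. The next inside the gene was 120126302 to 120131586, with a fold of 14.5 and rank 310.

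Past the 3' end of POU2F3 stood a further H3K4me2-rich block with LSD1. It ran from 96.6 kb to 105 kb from the gene start. Its strongest H3K4me2 interval, 120207179 to 120211830, began 16.5 kb past the end of the gene, had a fold of 20.4 and ranked 151. The neighbouring interval 120205712 to 120206900 had a fold of 18.8 and rank 626. H3K4me1 was weaker there, with a highest fold of 5.75 and percentile of 83.5. The LSD1 peak with the highest score at the locus with inhibitor, 120206463 to 120207512, lay here, with a fold of 4.60 and a percentile of 95.9. With DMSO, LSD1 at 120206497 to 120207935 had a fold of 3.62 and a percentile of 82.4. By gene order TLCD5 and ARHGEF12 follow POU2F3, and the gene at this block was not determined, since no hg19 annotation was used. Before the gene, H3K4me2 at 120080736 to 120082944 had a fold of 14.6 and rank 1755, with an LSD1 peak in both lists and H3K4me1 of at most 3.87-fold. By gene order OAF lies on this side, and the gene at this site was not determined either.

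The strongest LSD1 peak of the locus with DMSO carried neither mark. It lay inside the gene, at 120162249 to 120162484, 54.9 kb from the start, with a fold of 5.55 and a percentile of 97.1. With inhibitor the same place had a peak at 120162282 to 120162468, with a fold of 4.39 and a percentile of 91.8. The nearest H3K4me2 interval was 8.16 kb from the DMSO peak and the nearest H3K4me1 interval 6.24 kb. An unmarked place in both lists lay before the gene, at 120100605 to 120100956 with inhibitor (fold 4.82, percentile 94.7) and 120100649 to 120101526 with DMSO (fold 3.50, percentile 79.8). Another was at 120167325 to 120167573 with inhibitor (fold 3.84, percentile 78.8) and 120166977 to 120167827 with DMSO (fold 3.33, percentile 54.8). In all, neither mark, as profiled under DMSO, was found at 5 of the 24 LSD1 peaks with inhibitor and 4 of the 18 with DMSO. Of the whole lists, 37.6% and 39.8% had neither.

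By place, 14 LSD1 peaks with inhibitor, 11 with DMSO, 13 H3K4me2 and 17 H3K4me1 intervals touched the gene itself. Before it lay 4, 2, 1 and 4 in the same order, and after it 6, 5, 5 and 11. Deeper in the gene, blocks at 41.6 to 48.2 kb and 59.6 to 66.6 kb were led by H3K4me1, with a highest fold of 9.27 and 9.84 and a highest percentile of 96.3 and 97.9. H3K4me2 there reached percentiles of 8.97 and 22.7. Of the other high LSD1 peaks at POU2F3, the one with inhibitor at 120125467 to 120126576 had a fold of 4.05 and a percentile of 94.9. The DMSO peak there, at 120125426 to 120126423, had a fold of 3.14 and a percentile of 82.3. Both lay on both marks.

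**Figure D2:**
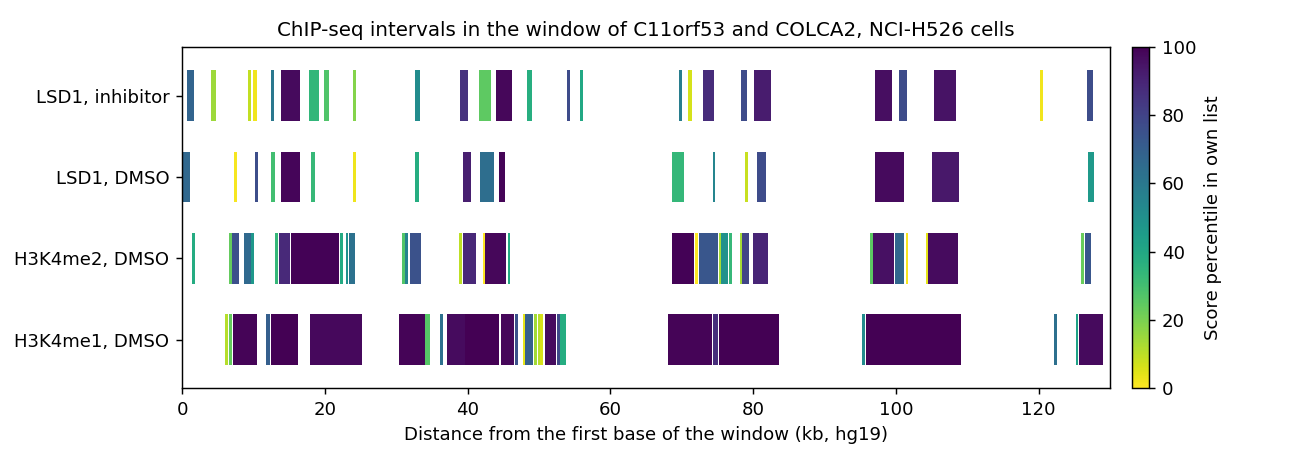
Intervals of the 4 lists in the window of C11orf53 and COLCA2, as distance in kb from the first base of the window on hg19, with colour for the percentile of the score within each list and bars narrower than 0.4 kb drawn at 0.4 kb. LSD1 and both marks fall into 4 wide blocks, with gaps of no intervals between 55.9 kb and 68.1 kb and between 83.7 kb and 95.3 kb.

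In the coactivator window, LSD1 and both marks formed 4 wide blocks. They ran from 4.03 kb to 25.2 kb, 30.3 kb to 55.9 kb, 68.1 kb to 83.7 kb and 95.3 kb to 109 kb from the first base of the window. Together they held 30, 34, 21 and 13 of the 109 intervals, and all 4 lists were present in each. The second was the widest, at 25.5 kb. Between them lay gaps with no interval of any list. Of the 7 blocks in the window, all 7 held LSD1, and 0 held 1 list alone. At POU2F3, 11 of 13 blocks held LSD1 and 4 held 1 list alone. A region denser in intervals joins into fewer blocks with more lists in each, so these counts also follow density. No share of such blocks over the genome is given.

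The second block carried the highest-scoring LSD1 peak of either region in both lists. With inhibitor, the peak at 111143963 to 111146296 had a fold of 6.18, a −log10 q of 11.9 and a percentile of 98.3. With DMSO, the peak at 111144366 to 111145225 had a fold of 5.34, a −log10 q of 10.6 and a percentile of 98.98. By fold, the unmarked DMSO peak inside POU2F3 was higher, at 5.55, and the implied background there was 1.81 times the list median, against 3.33 times at this DMSO peak. H3K4me2 at 111142469 to 111145351 overlapped both LSD1 peaks, with a fold of 15.0 and rank 1529. The centres of both lay on H3K4me1 at 111144651 to 111146520, with a fold of 8.59 and rank 1814. A stronger H3K4me1 interval, 111139708 to 111144409, with a fold of 15.98 and rank 226, reached only the edge of the LSD1 peaks.

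The first block held the next LSD1 peak, nearly the same interval in both lists. With inhibitor it was 111113865 to 111116560, with a fold of 4.68 and a percentile of 97.5, and with DMSO 111113902 to 111116545, with a fold of 4.98 and a percentile of 98.6. The H3K4me2 interval 111115207 to 111121968 overlapped this peak in both lists, with the peak centres, 111115212 and 111115223, just inside its edge. That interval had the highest H3K4me2 score of the window, with a fold of 17.7, rank 344 and a width of 6.76 kb. Its highest summit, at 111118064, lay outside the LSD1 peak. The earlier part of the peak met another H3K4me2 interval, 111113562 to 111115090, with a fold of 9.87 and rank 9272. H3K4me1 at 111112422 to 111116248 had a fold of 14.5 and rank 197.

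The last pair of wide blocks held the highest H3K4me1 scores of the window. In the block at 95.3 kb, 1 interval, 111195851 to 111209193, was 13.3 kb wide with 37 summits. It had a fold of 13.8, rank 138 by score and rank 13 by width of the 94689. In the block at 68.1 kb, 111175211 to 111183673 had a fold of 15.6 and rank 153. H3K4me2 in the same block was highest at 111168631 to 111171662, with a fold of 15.5 and rank 419. LSD1 in the block at 95.3 kb was high in both lists, at 111197104 to 111199453 with inhibitor (fold 4.46, percentile 96.4) and at 111197154 to 111201097 with DMSO (fold 4.45, percentile 97.4). The DMSO peak was 3.94 kb wide and ranked 80 by width of the 45188. Which of these blocks lie on C11orf53, COLCA1 or COLCA2 was not determined, for the same reason as above.

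The loci held strong members of each list beside many weak ones. Among the intervals at POU2F3, 5 of 24 LSD1 peaks with inhibitor, 1 of 18 with DMSO, 8 of 19 H3K4me2 and 7 of 32 H3K4me1 intervals were in the highest 10% of their lists by score (background 10.0% in each). The counts of the coactivator window were 5 of 26, 5 of 18, 5 of 36 and 12 of 29. The highest 1% held 6 H3K4me2 (background 1.0%) and 3 H3K4me1 intervals (background 0.997%) of POU2F3, and 2 and 6 of the coactivator window. LSD1 had 0 there in either list.

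Scores and folds gave different pictures for LSD1. The median score percentile of LSD1 at POU2F3 was 74.6 with inhibitor and 69.0 with DMSO, but the median fold was 3.602 and 3.18, beside 3.91 and 3.61 over the whole lists. LSD1 in the coactivator window had a median score percentile of 59.0 with inhibitor and 59.3 with DMSO, and a median fold of 3.22 and 3.02. By fold, 9 of 24 and 4 of 18 LSD1 peaks of POU2F3, and 7 of 26 and 5 of 18 of the coactivator window, were above their list's median. The 3 highest-scoring H3K4me1 intervals of POU2F3 ranked 23, 31 and 86 by fold. Those of H3K4me2 ranked 594, 906 and 6509 by fold, so the interval inside the gene from 120126302 stood much lower by fold than by score.

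**Figure D3:**
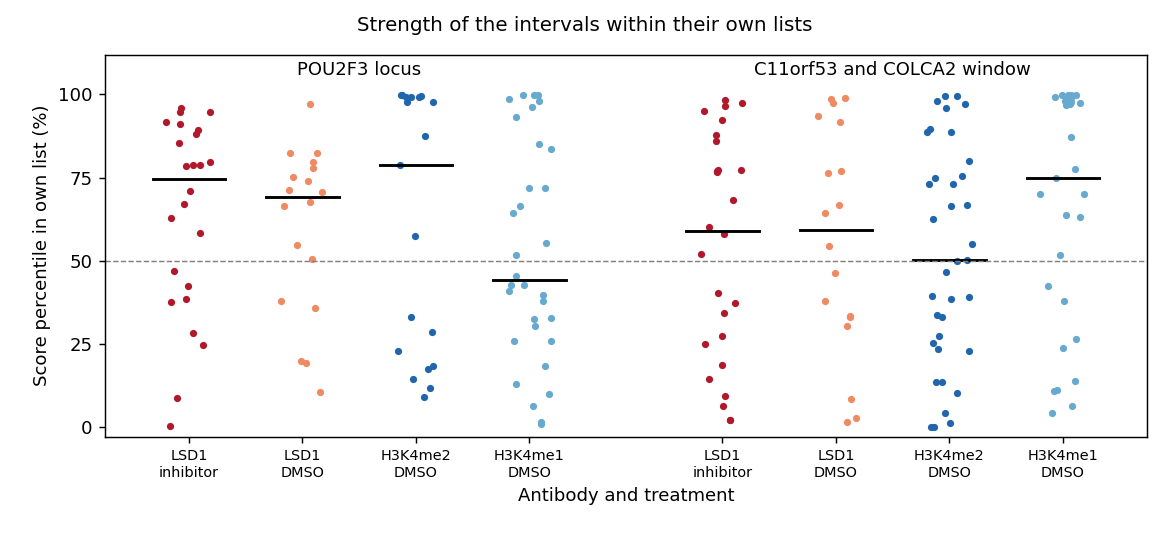
Percentile of the score within its own list for each interval, by list and region, with the median as a black line and a dashed line at 50. The H3K4me2 intervals of POU2F3 have their median at 78.7 and those of H3K4me1 at 44.1, while the 4 LSD1 medians lie between 59.0 and 74.6.

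LSD1 was found at most of the same places with inhibitor and with DMSO. At POU2F3, 17 of 24 inhibitor peaks (70.8%, 95% Wilson interval 50.8 to 85.1%) were overlapped by a DMSO peak, where 58.1% of the whole inhibitor list was. In the other direction, 16 of 18 DMSO peaks (88.9%, 67.2 to 96.9%) were overlapped by an inhibitor peak, against 63.2% of the whole DMSO list. Of the coactivator window, 18 of 26 inhibitor peaks (69.2%, 50.01 to 83.5%) and 17 of 18 DMSO peaks (94.4%, 74.2 to 99.01%) were overlapped. These confidence intervals reflect counting error alone, and peaks close together share their surroundings. By length, the lists shared 9.26 kb at POU2F3, which was 50.7% of LSD1 sequence with inhibitor and 64.7% with DMSO. The coactivator window shared 17.3 kb, or 60.2% and 77.7%. When each peak had to cover 50% of the other, 25% of inhibitor peaks and 33.3% of DMSO peaks were shared at POU2F3, and 42.3% and 61.1% in the coactivator window. The shares were not adjusted for score or width. LSD1 peaks of the coactivator window had a median width of 782 bp with inhibitor and 873 bp with DMSO, and those of POU2F3 319.5 and 631 bp. The whole lists had 388 and 471 bp.

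Few LSD1 peaks of the DMSO list lacked a partner. At POU2F3 these were 120131079 to 120131537, inside the gene on both marks with a fold of 3.57 and a percentile of 70.5, and 120150846 to 120151056, unmarked with a fold of 2.93 and a percentile of 10.6. That of the coactivator window was 111107224 to 111107734, with a fold of 2.69 and a percentile of 1.47. Peaks of the inhibitor list alone numbered 7 at POU2F3 and 8 in the coactivator window. The highest at POU2F3 was 120127209 to 120127777, inside the gene on both marks, with a fold of 3.96 and a percentile of 85.5. In the coactivator window it was 111153970 to 111154184, on neither mark, with a fold of 3.58 and a percentile of 77.2. The marks were profiled under DMSO alone, so the marks of inhibitor-treated cells at these peaks are not known. The median percentile of inhibitor-only peaks was 38.6 at POU2F3 and 20.9 in the coactivator window, against 78.8 and 76.8 for inhibitor peaks found in both lists.

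Most LSD1 peaks of the loci lay on chromatin marked under DMSO, when an overlap of 1 bp was counted. The highest shares were those of LSD1 with DMSO in the coactivator window. At POU2F3, H3K4me2 was overlapped by 17 of 24 inhibitor peaks (70.8%, 50.8 to 85.1%, whole list 52.9%) and 13 of 18 DMSO peaks (72.2%, 49.1 to 87.5%, whole list 50.4%). H3K4me1 was overlapped by 15 of 24 (62.5%, 42.7 to 78.8%, whole list 39.5%) and 12 of 18 (66.7%, 43.7 to 83.7%, whole list 41.5%). In the coactivator window, H3K4me2 was overlapped by 20 of 26 inhibitor peaks (76.9%, 57.9 to 89.0%) and 16 of 18 DMSO peaks (88.9%, 67.2 to 96.9%). H3K4me1 was overlapped by 21 of 26 (80.8%, 62.1 to 91.5%) and 17 of 18 (94.4%, 74.2 to 99.01%). Both marks together were found at 13 of 24 and 11 of 18 LSD1 peaks of POU2F3 and at 19 of 26 and 16 of 18 of the coactivator window, beside 30.0% and 31.7% of the whole lists. The marked sequence fills much of both regions, and under the 1 bp rule wide peaks and wide intervals meet more easily. With a reciprocal overlap of 50%, at most 33.3% of the LSD1 peaks of any list and region lay on either mark, whereas 50% to 88.9% had their centre on a given mark. The share that placement alone would give was not computed.

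LSD1 on H3K4me2 without H3K4me1 was rare in the coactivator window. That class held 1 of 26 inhibitor and 0 of 18 DMSO peaks there, and 4 of 24 and 2 of 18 at POU2F3, where the whole lists had 22.9% and 18.7%. H3K4me1 covered 93.9% of the H3K4me2 sequence of the window and 73.9% at POU2F3. Little H3K4me2 sequence of the window thus lay outside H3K4me1, and whether LSD1 prefers or avoids this class was not tested. All 6 such peaks of the POU2F3 locus lay past the 3' end of the gene. LSD1 on H3K4me1 without H3K4me2 was found at 2 of 24 inhibitor and 1 of 18 DMSO peaks of POU2F3, all inside the gene, and at 2 of 26 and 1 of 18 of the coactivator window, where the whole lists had 9.49% and 9.84%.

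Nearly every H3K4me2 interval of the loci touched an H3K4me1 interval. At POU2F3 this held for 18 of 19 (94.7%, 75.4 to 99.1%) and in the coactivator window for 35 of 36 (97.2%, 85.8 to 99.5%), beside 63.1% of the whole H3K4me2 list. By summits it held for 84.2% at POU2F3 and 97.2% in the coactivator window. With a reciprocal overlap of 50% it held for 10.5% and 5.56%, so the intervals of the marks seldom matched in extent. H3K4me1 intervals overlapped H3K4me2 about as often as elsewhere, in 14 of 32 and 13 of 29, beside 47.4% of the list. The H3K4me1 intervals without H3K4me2 included 111150899 to 111152448, with a fold of 9.97 and a percentile of 97.1 and no LSD1 in either list. LSD1 with inhibitor met 12 of 19 H3K4me2 intervals of POU2F3 and 22 of 36 of the coactivator window, beside 40.8% of the list. LSD1 with DMSO met 11 and 17 of them, beside 35.4%. H3K4me1 intervals were met by LSD1 with inhibitor in 9 of 32 at POU2F3 and 13 of 29 in the coactivator window, beside 23.8%, and with DMSO in 9 and 12, beside 23.7%.

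**Figure D4:**
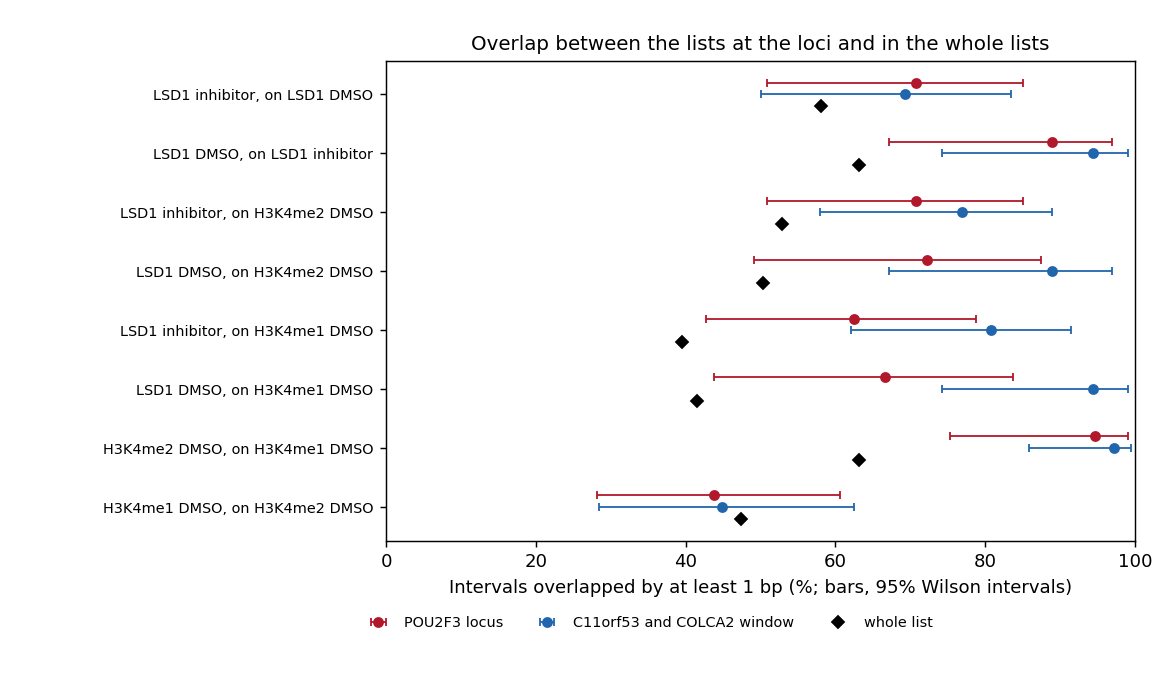
Percent of intervals of the first named list that overlap the second by at least 1 bp, for POU2F3, the coactivator window and the whole list, with 95% Wilson intervals as bars. The shares of the 2 regions stand above the whole list in each pairing except H3K4me1 on H3K4me2, where 43.8% and 44.8% stand beside 47.4%. Among the shares above it, some have Wilson intervals that include the whole-list share. These are LSD1 with inhibitor on LSD1 with DMSO in both regions, and both LSD1 lists on H3K4me2 at POU2F3. The bars reflect counting error alone, and peaks close together share their surroundings. A bar that leaves out the whole-list share is therefore no test of a difference, in any pairing.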

How the data were processed

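ChIP-seq peak lists of 4 libraries were used, grouped by the sample descriptions. The labels repeat the drug treatment for all samples; it was taken to hold for the GSK552 libraries alone. BWA, Picard and MACS2 2.0 on hg19 are named in the submitters' processing notes. Sequencing depth, duplicate handling and the input paired with each list were not stated in the labels or files. The deposited score is 10 times the −log10 q, and the deposited fold is the authors' ratio of peak signal to local background. Deposited −log10 values of p and q belong to each peak and served within a list, to rank and describe. LSD1 lists have the broad layout. Rows of the histone lists that share an interval were reduced to the row with the highest score (178083 rows to 81619 intervals for H3K4me2, 175135 to 94689 for H3K4me1). Percentiles and ranks use the −log10 q. Overlap means at least 1 bp. The implied background is the Poisson mean at which a peak's fold, with a pseudocount of 1, has its p-value, relative to the list median. For broad peaks these values are averages, so it is approximate. Overlap search and implied background were tested on simulated data.

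Intervals named were the 3 highest-scoring of each list and region, those at the gene start, the highest LSD1 peak of 1 list alone, and, chosen after the values were seen, unmarked peaks and members of the blocks. The implied background, the flanks and the joining of blocks were also chosen after the values were seen. The regions and lists were chosen with earlier results of these data known. Other genes of the POU2F3 pathway were planned but not located, for want of an hg19 annotation. Python 3.11.15, pandas 2.3.3 and scipy 1.17.1 were used.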

Additional observations from a re-analysis of the deposited data

How the results depend on the processing

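No paired analysis was possible because the 4 lists come from single libraries. Margins of 25 and 100 kb around POU2F3, interval centres inside the regions, and equal length of the LSD1 lists moved 0 of their values past the limits used (1.5 times for counts, the Wilson interval for shares). Depth is unknown, so a peak missing from a list is not shown to be absent. Causes were not tested unless stated. Whole-list shares are given for all intervals at 1 bp alone. The shares below, under other settings, have no whole-list value beside them.

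With the 50% highest-scoring intervals, which keeps fewer by construction, POU2F3 held 11 H3K4me2 and 15 H3K4me1 intervals, and the coactivator window 15 LSD1 peaks with inhibitor, 10 with DMSO and 18 H3K4me2 intervals. H3K4me2 was then on H3K4me1 in 100% of the coactivator window and met by LSD1 in 90.9% at POU2F3, with inhibitor and with DMSO. With LSD1 at a −log10 q of 2 or more, the coactivator window held 10 DMSO peaks, and 50% of its inhibitor peaks were met by DMSO peaks.

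By centres or summits at POU2F3, 50% of inhibitor LSD1 was on DMSO LSD1 and 66.7% the reverse. H3K4me2 was met by DMSO LSD1 in 31.6%, and H3K4me1 by inhibitor LSD1 in 9.38% and by DMSO LSD1 in 12.5%. In the coactivator window H3K4me2 was met by inhibitor LSD1 in 44.4%, and H3K4me1 in 17.2% with inhibitor and 13.8% with DMSO.

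The other 14 of 22 shares stayed within the limits by centres or summits, among them all 8 of LSD1 on a mark (50% to 88.9%) and both of H3K4me2 on H3K4me1 (84.2% and 97.2%). A reciprocal overlap of 50%, which also asks for like widths, lowered all 22 shares. At POU2F3, inhibitor LSD1 was on DMSO LSD1 in 25% and the reverse in 33.3%. LSD1 was on H3K4me2 in 8.33% with inhibitor and 5.56% with DMSO, and on H3K4me1 in 4.17% and 0%. H3K4me2 was on H3K4me1 in 10.5%, on inhibitor LSD1 in 10.5% and on DMSO LSD1 in 5.26%, and H3K4me1 on LSD1 in 3.12% and 0%. In the coactivator window the values in the same order were 42.3% and 61.1%, 26.9% and 33.3%, 11.5% and 5.56%, then 5.56%, 19.4% and 16.7%, and 10.3% and 3.45%.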

Other observations

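The implied background was raised over chromosome 11 as a whole, and over other chromosomes too. Its median over chromosome 11 was 1.44 times the list median for LSD1 with inhibitor, 1.42 for LSD1 with DMSO, 1.40 for H3K4me2 and 1.45 for H3K4me1. Every interval of both regions was above its list's median. On chromosome 13 the medians in the same order were 1.32, 1.43, 1.48 and 1.41, higher than on chromosome 11 for LSD1 with DMSO and for H3K4me2. On chromosome 20 they were 1.28, 1.23, 1.15 and 1.40.

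The last block of the coactivator window ran from 125 kb to 129 kb. It held an H3K4me1 interval with a fold of 9.27 and a percentile of 97.4, an H3K4me2 interval with a fold of 6.83 and a percentile of 73.1, and LSD1 in both lists, with a fold of 3.29 with inhibitor and 2.93 with DMSO.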
